A study of Mus musculus with 8 samples.

Results

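The inactive X chromosome (Xi) of mouse cells folds into a pair of large contact domains, the megadomains, which meet at the Dxz4 tandem repeat. Here replication timing was described on either side of that hinge, over all 343 bins of 500 kb into which the mouse X chromosome (mm10) was divided. The bin that holds Dxz4, chrX:75500001-76000000, was kept apart as the hinge bin. The 151 bins before it, chrX:1-75500000, form the proximal megadomain and the 191 bins after it, chrX:76000001-171031299, the distal megadomain. The split used position alone and no replication score, and contact maps were not analysed here, so the names proximal and distal megadomain stand for places on the sequence.

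The scores come from Repli-seq of clonal lines of female mouse embryonic fibroblasts (MEFs), derived from F2 embryos of a cross of M.m.domesticus (strain FVB) and M.m.castaneus at embryonic day E9.5. One line, clone Wt2A1, was wild type for SmcHD1 (wt), and the other, clone Mut5A6, was homozygous for the MommeD1 null allele (SmcHD1 mut, here mut). In both lines the castaneus X was the Xi and the FVB X the active X (Xa). Unsynchronised cells were stained with Hoechst, sorted by DNA content into G1 and S phase and sequenced, with 2 replicates of each fraction and 8 samples in all, and the deposited scores pool the replicates. Each genotype is 1 clone, so genotype and clone cannot be told apart, and no difference below has a replicate check or a test. The SDs given are spreads over bins of 1 track, and neighbouring bins are not independent.

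X inactivation silences most genes on one X of each female cell. The Xi replicates later in S phase than the Xa, where gene-rich stretches replicate early and gene-poor stretches late. SmcHD1 is a non-canonical SMC protein enriched on the Xi and needed for the normal long-range folding of the Xi. Many Xi genes are active when SmcHD1 is lost in the germline, but not after its knockout in fibroblasts. Dxz4 is a tandem repeat that binds the architectural protein CTCF on the Xi, and loss of Dxz4 removes the border between the megadomains. In Repli-seq, DNA copied early in S phase has more copies in S than in G1 cells, so a higher S over G1 score means earlier replication.

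Dxz4 is annotated as the non-coding gene 4933407K13Rik at chrX:75706932-75764699 on the minus strand. A search of the hinge bin for 31-base words that occur at least 3 times found 1 dense block, chrX:75730001-75760000, made of 6 neighbouring 5 kb windows in which 63.8% to 91.8% of words were repeated, against at most 28.7% in any other window of the bin. Inside it, 1 word recurred 7 times with a median spacing of 4867 bases (3841 to 5723). The first 150 bases from that word are printed for 4 copies, on the plus strand of the reference genome (GRCm38, RefSeq), to show how alike the units of the hinge are. Lower case marks bases that equal copy 1, and capitals mark bases that differ from it.

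Dxz4 copy 1, chrX:75730412-75730561: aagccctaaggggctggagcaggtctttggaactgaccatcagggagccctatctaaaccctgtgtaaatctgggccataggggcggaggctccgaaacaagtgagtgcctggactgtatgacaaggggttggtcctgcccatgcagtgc

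Dxz4 copy 2, chrX:75735485-75735634: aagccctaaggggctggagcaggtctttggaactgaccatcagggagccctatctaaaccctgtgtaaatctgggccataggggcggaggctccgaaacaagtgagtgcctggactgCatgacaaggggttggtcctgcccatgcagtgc

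Dxz4 copy 5, chrX:75750917-75751066: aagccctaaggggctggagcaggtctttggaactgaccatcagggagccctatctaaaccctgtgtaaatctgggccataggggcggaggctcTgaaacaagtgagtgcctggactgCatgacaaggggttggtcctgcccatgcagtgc

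Dxz4 copy 6, chrX:75754758-75754907: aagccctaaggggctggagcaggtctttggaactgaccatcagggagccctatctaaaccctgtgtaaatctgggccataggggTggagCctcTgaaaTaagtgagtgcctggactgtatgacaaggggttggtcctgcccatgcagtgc

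Copy 2 matched copy 1 at 149 of 150 bases, copy 5 at 148 and copy 6 at 146, and a further 2 copies were identical to copy 1 over this stretch. Copy 7, chrX:75759631-75759780, matched at only 66 of 150 bases when compared position by position, without allowing for insertions or deletions, and is not printed. The repeat block had a GC content of 53.9%, against 40.6% for the whole hinge bin. These bases are those of the reference strain, and the FVB and castaneus arrays, whose length and sequence may differ, were not analysed here.

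The megadomains differed in gene density and in how much of them could be scored by allele. The proximal megadomain held 478 protein-coding gene starts over 75.5 Mb (6.33 per Mb) with a mean GC content of 39.8% ± 2.16 (SD over bins), and the distal megadomain held 467 over 95.0 Mb (4.91 per Mb) with 39.0% ± 2.36. The proximal genes were the more clustered, since 49.0% of proximal and 56.5% of distal bins held 2 or more gene starts. Allele scores that were repeated at least 20 times within a track or lay outside −3 to 3 were dropped, since a constant repeated along a track is no measurement of its bin and extreme Z-scores would dominate the means. That left 117 proximal bins for wt Xa, wt Xi and mut Xa and 113 for mut Xi, and 174, 178, 173 and 172 distal bins for wt Xa, wt Xi, mut Xa and mut Xi. In all 4 allele tracks together 104 of 151 proximal bins (68.9%) and 164 of 191 distal bins (85.9%) were kept.

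The losses were not spread evenly along the chromosome. In the proximal megadomain, no bin was kept in all 4 tracks beyond 70 Mb from the hinge, 15.0% were kept at 40 to 50 Mb and 45.0% at 30 to 40 Mb. In the distal megadomain the lowest shares were 55.0% at 40 to 50 Mb and 65.0% at 50 to 60 Mb. Within 20 Mb of the hinge every bin was kept on both sides. Because scores near the dropped stretches scatter most, values were also taken over the 76 proximal and 133 distal bins that lay at least 2 bins away from any dropped bin, called clear bins below. Read depth per bin is unknown, so the part of coverage in any single value was not tested.

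**Figure D1:**
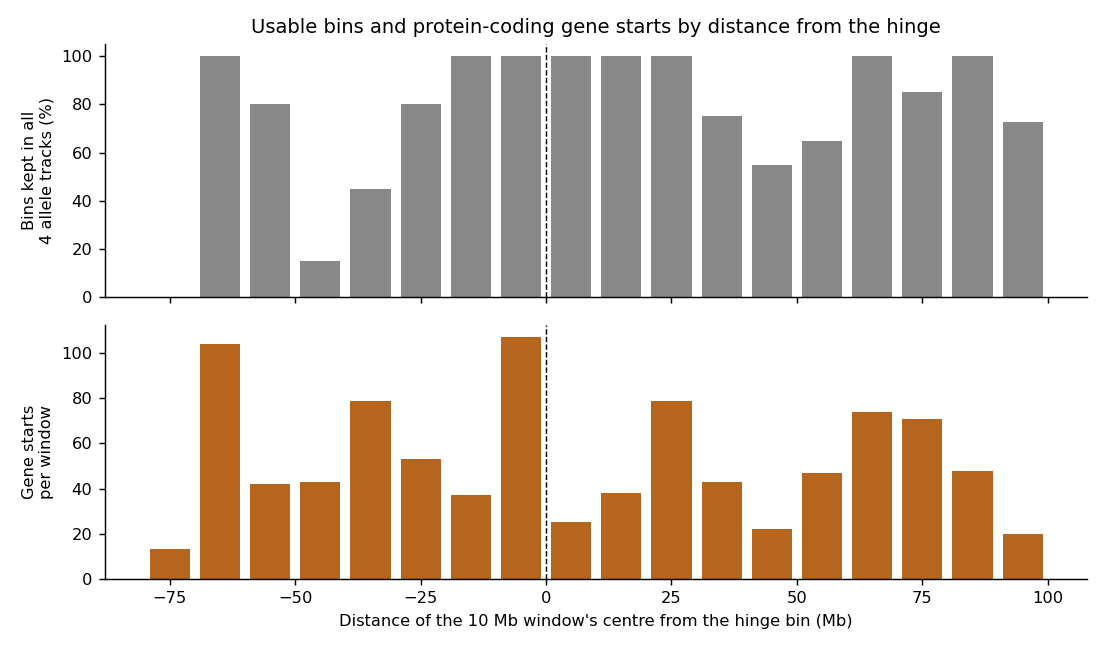
Share of 500 kb bins kept in all 4 allele tracks (percent, upper) and number of protein-coding gene starts (lower) in 10 Mb windows against distance from the hinge bin (Mb, proximal to the left of 0). All bins within 20 Mb of the hinge were kept on both sides, and the share was 15.0% at 40 to 50 Mb on the proximal side.

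The bins over which the authors took the mean and SD of each Z-score are not stated, so whether the 4 allele tracks share a scale is open, and differences in level between Xa and Xi or between genotypes are given as differences of deposited scores. In wt cells the mean Xi score was below the mean Xa score in both megadomains and differed little between them. The mean wt Xi score was −0.881 ± 0.856 over 117 proximal bins and −0.962 ± 0.643 over 178 distal bins (Z-score of S over G1, mean ± SD over bins), and the medians were −0.990 and −0.978. The difference of the means, −0.0805, was smaller than the SD of 10 Mb window means within either megadomain (0.221 proximal, 0.196 distal). The wt Xa had means of −0.277 ± 1.17 and −0.184 ± 1.15, a difference of 0.0927 against a window SD of 0.545 and 0.589. The Xa scored above the Xi in 67.9% of 112 proximal bins and 80.2% of 172 distal bins of wt cells. A window SD describes how much the score varies along the chromosome and is no error of a megadomain mean, which could not be had from 1 track.

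Over all kept bins of mut cells the proximal Xi mean was close to wt and the distal Xi mean was higher. By medians and over clear bins the proximal Xi change was below 0 and the distal one above 0. The mut Xi score averaged −0.943 ± 0.971 over 113 proximal bins and −0.747 ± 0.997 over 172 distal bins, a difference of 0.195 against window SDs of 0.326 and 0.318. Bin by bin, mut minus wt on the Xi averaged −0.00272 ± 1.19 (110 bins) in the proximal and 0.199 ± 1.11 (170 bins) in the distal megadomain, with medians of −0.151 and 0.157. The Xi score was higher in mut than in wt in 41.8% of proximal and 56.5% of distal bins. Over clear bins the mean change was −0.121 proximally and 0.0989 distally, so the proximal side was lower in mut by about as much as the distal side was higher. Over all kept bins the difference of 0.202 between the megadomains was smaller than the SD of 10 Mb window means of the change (0.376 proximal, 0.318 distal).

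On the mut Xa, which carries the same null genotype without being inactive, the means were −0.446 ± 1.11 and −0.347 ± 1.03. Mut minus wt on the Xa averaged −0.0970 ± 1.01 (111 bins) and −0.160 ± 1.0 (167 bins), a difference of −0.0625 between the megadomains. Over clear bins the Xa change averaged −0.262 proximally and −0.231 distally, larger in size than the Xi change over clear bins on either side. The distance between the chromosomes changed most in the distal megadomain. Xa minus Xi averaged 0.619 in wt and 0.588 in mut over the proximal bins, and 0.780 in wt and 0.360 in mut over the distal bins. In the distal megadomain both the higher Xi and the lower Xa mean went into that change.

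**Figure D2:**
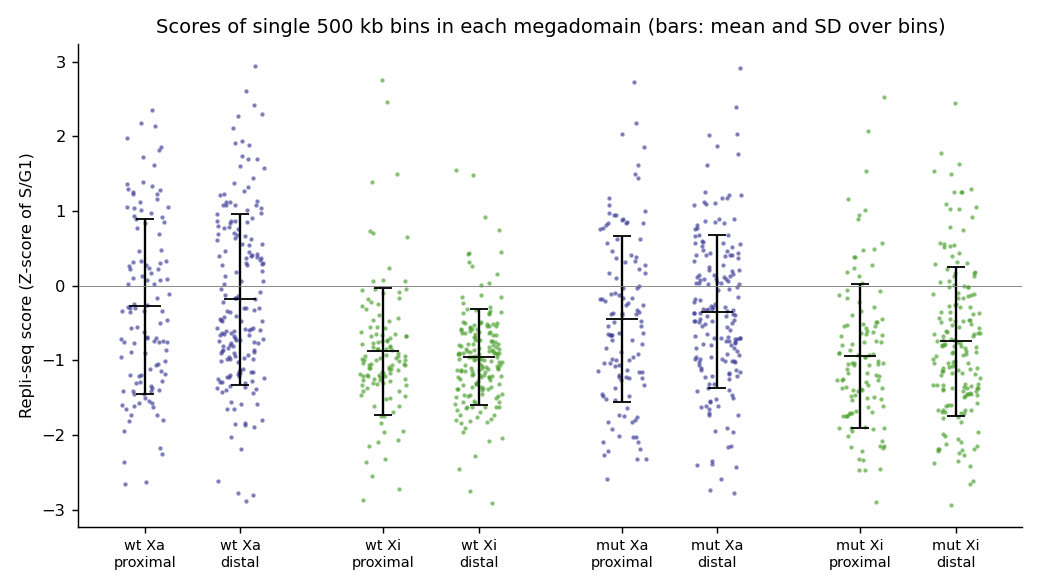
Repli-seq score (Z-score of S over G1) of each kept 500 kb bin for Xa (blue) and Xi (green) in wt and mut cells, split into proximal and distal megadomain, with bars for the mean and SD over bins. The SD of the wt Xi is 0.856 proximally and 0.643 distally and that of the mut Xi 0.971 and 0.997, and the ranges of single bins overlap widely.

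The spread of scores over bins holds both the division into early and late stretches and the scatter of single bins. In the distal megadomain the SD over bins kept in both genotypes went from 0.592 on the wt Xi to 0.991 on the mut Xi, a ratio of 1.67, and in the proximal megadomain from 0.720 to 0.978, a ratio of 1.36. In wt cells the Xa was 1.96 times as variable as the Xi in the distal and 1.37 times in the proximal megadomain, over bins kept on both. In mut cells these ratios were 0.955 and 1.13, so the mut Xi varied about as much over bins as the mut Xa on both sides of the hinge. Over clear bins the wt Xa had SDs of 1.069 proximally and 1.003 distally, against 0.441 and 0.438 on the wt Xi. The lower proximal ratio of Xa to Xi SD in wt cells was thus absent over clear bins.

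The larger proximal SD of the wt Xi rested on bins near dropped stretches. The distal over proximal SD ratio of the wt Xi was 0.751 over all kept bins, but over clear bins the SDs were 0.441 and 0.438, and the median absolute deviations over all kept bins were 0.322 and 0.353. Over clear bins the mut Xi had SDs of 0.783 proximal and 0.883 distal. Differences between adjoining bins give a spread of 0.769 (proximal) and 0.540 (distal) for the wt Xi and 0.773 and 0.859 for the mut Xi. Such bin-to-bin scatter makes up 80.6% and 70.6% of the wt Xi variance and 63.3% and 74.3% of the mut Xi variance, so single bins carry little precision, and how much of the higher mut Xi SD is scatter and how much early and late stretches was not separated.

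**Figure D3:**
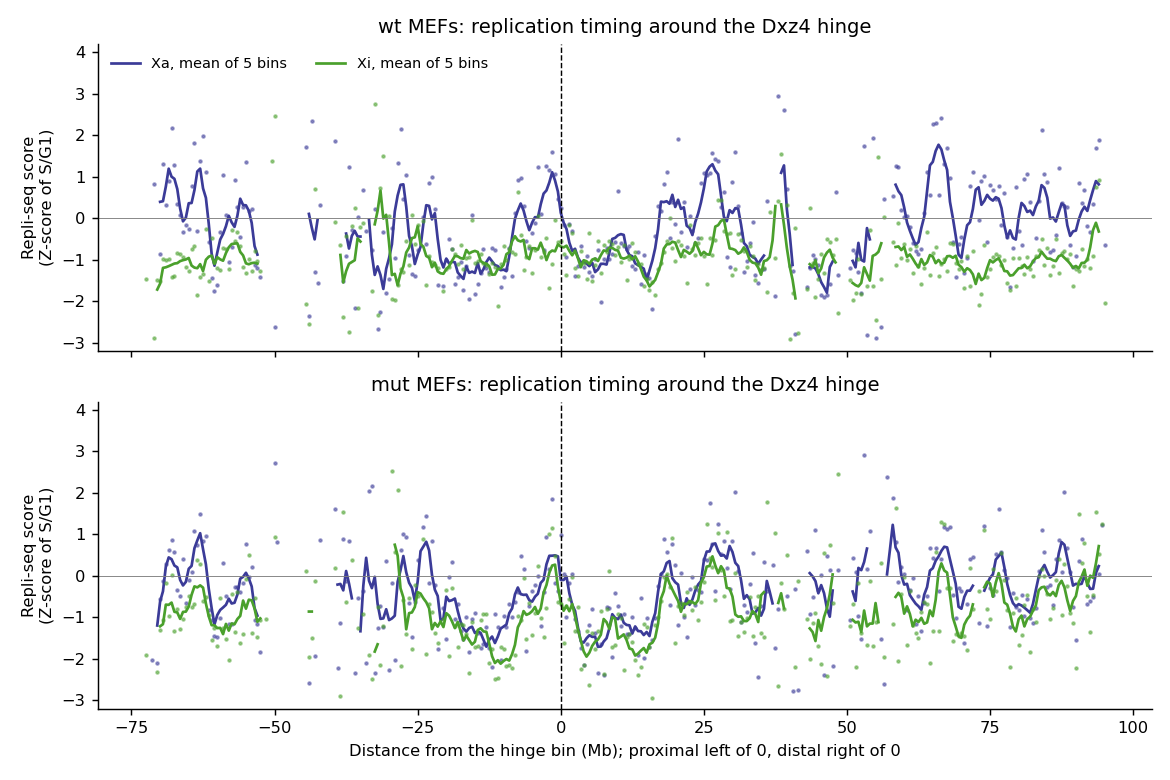
Repli-seq score (Z-score of S over G1) along the X chromosome against distance from the hinge bin (Mb) for Xa (blue) and Xi (green) in wt (upper) and mut (lower) cells, with points for single bins and lines for means of 5 bins. The wt Xi line crosses the hinge without a large step, with means of −0.764 and −0.896 over the 5 Mb on either side, and the mut Xi line has higher peaks and deeper troughs on both sides, with gaps where bins were dropped.

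How far the mut Xi scores followed the Xa landscape depended on the bins taken, as correlations across bins describe. Their r with the wt Xa scores was similar in both megadomains, and that of the wt Xi scores differed more between them. The bins of a track share their libraries, and neighbouring bins are alike in base composition. Over clear bins Pearson's r of the mut Xi score with the wt Xa score was 0.59 in the proximal (76 bins) and 0.56 in the distal megadomain (133 bins). For the wt Xi score against the wt Xa score it was 0.13 and 0.30. Over all kept bins the mut Xi had an r with the wt Xa of 0.32 (108 bins) and 0.40 (167 bins), and the wt Xi one of −0.05 (112 bins) and 0.36 (172 bins). In the distal megadomain the contrast between mut and wt was thus smaller over all kept bins, where Spearman's rho was 0.45 for the mut Xi and 0.32 for the wt Xi. The mut Xi and wt Xi scores of the same clear bins had an r of 0.02 and 0.22, against 0.83 and 0.65 for mut Xa with wt Xa. As far as the bin-to-bin scatter given above is noise, it limits the r that a pair of Xi tracks can reach, and its part in the low values was not tested.

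Gene-rich bins, those with at least 2 protein-coding gene starts, show how the tracks differ with gene content. On the wt Xa they scored above gene-poor bins by 1.02 in the proximal and 1.09 in the distal megadomain. On the wt Xi the difference was −0.160 and 0.118, and on the mut Xi 0.257 and 0.566. In the distal megadomain the Xi change was 0.413 ± 0.996 over 98 gene-rich bins and −0.0921 ± 1.20 over 72 gene-poor bins. In the proximal megadomain it was 0.111 ± 1.07 over 56 gene-rich and −0.120 ± 1.31 over 54 gene-poor bins. Over gene-poor bins alone the megadomains differed in Xi change by 0.0281, and over gene-rich bins the distal mean was the higher.

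Base composition moved with the change as well. Over clear bins the Xi change had an r with GC content of 0.62 in the proximal and 0.36 in the distal megadomain, and the score change without allele split had an r of 0.76 and 0.63. Over all kept bins the r of the Xi change with GC content was lower, at 0.33 and 0.27. For the Xa change over clear bins r was −0.06 and −0.08. GC content, gene number and the wt Xa score go together along the chromosome, and the part of GC content in the Xi change was not tested.

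Shifts of more than 1 score unit were counted in each direction. The Xi score was higher in mut by over 1 in 14 of 110 proximal bins (12.7%) and 32 of 170 distal bins (18.8%), against 16.4% of all bins with a value. It was lower by over 1 in 15 proximal (13.6%) and 20 distal bins (11.8%), against 12.5% of all bins. Over clear bins, 8 of 76 proximal (10.5%) and 18 of 133 distal (13.5%) bins were higher, against 12.4% of all clear bins, and 11 proximal (14.5%) and 14 distal (10.5%) bins were lower, against 11.9%. Every one of these shares lay near the whole-chromosome share, with the distal side above it for higher and the proximal side above it for lower scores.

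The same count on the Xa shows how many such shifts arise on the chromosome that is active. Here 11 of 111 proximal and 16 of 167 distal bins were higher by over 1 (9.68% of all bins), and 17 and 31 were lower (17.2%). Over clear bins only 2 proximal and 5 distal bins of the Xa were higher (3.33%), whereas 11 and 23 were lower (16.2%). Over clear bins the share of large upward shifts was thus higher on the Xi in both megadomains. That of large downward shifts was equal on Xi and Xa proximally (11 bins each) and higher on the Xa distally (23 against 14 bins), and none of these differences could be tested with 1 track each.

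On the distal side the mean Xi change was below 0 in the windows nearest to Dxz4 and above 0 farther out, and on the proximal side it had no such order. On the distal side the mean change per 10 Mb window was −0.414 ± 0.832 in the first 10 Mb and −0.188 ± 0.872 at 10 to 20 Mb (20 bins each). Beyond 20 Mb all windows were above 0, from 0.0398 at 30 to 40 Mb (16 bins) to 0.605 ± 0.858 at 70 to 80 Mb (17 bins) and 0.869 ± 1.05 over the 8 bins at 90 Mb and more. On the proximal side the first windows were also below 0, at −0.172 ± 1.15 and −0.432 ± 0.568 (20 bins each), although the 10 bins nearest to the hinge averaged 0.433. The Xa change was below 0 in the same 4 windows too, at −0.326 and −0.190 distally and −0.425 and −0.0632 proximally, so the negative values near Dxz4 were not confined to the Xi. On the Xa they were not confined to the hinge either. Farther out distally the Xa change was between −0.698 and −0.223, except at 40 to 50 Mb (1.14) and 50 to 60 Mb (0.328). Proximally the Xa windows farther out had both signs, from −0.351 to 1.26. For the Xi change the proximal windows farther out alternated, with 0.564 ± 1.63 at 20 to 30 Mb, −0.217 ± 2.01 at 30 to 40 Mb, 0.117 ± 1.64 at 40 to 50 Mb (4 bins), −0.0899 ± 0.721 at 50 to 60 Mb, 0.342 ± 0.773 at 60 to 70 Mb and −0.638 ± 0.286 beyond 70 Mb (2 bins). In every window but that last one the SD over bins exceeded the size of the mean, so the bins of different windows overlap widely.

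As a correlation over clear bins, the Xi change had an r with distance of 0.29 in the distal (133 bins) and 0.24 in the proximal megadomain (76 bins), and the Xa change one of −0.01 and 0.01. Over all kept bins the r of the Xi change with distance was 0.25 (170 bins) and 0.11 (110 bins). GC content itself had an r with distance of 0.23 (distal) and 0.22 (proximal) over clear bins. Restricted to bins within 50 Mb of the hinge on either side, the distal minus proximal difference in Xi change was 0.0655 (72 and 89 bins), against 0.202 over all bins. Without the bins that start after 150 Mb it was 0.108. The higher distal mean therefore rested mostly on bins far from Dxz4.

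**Figure D4:**
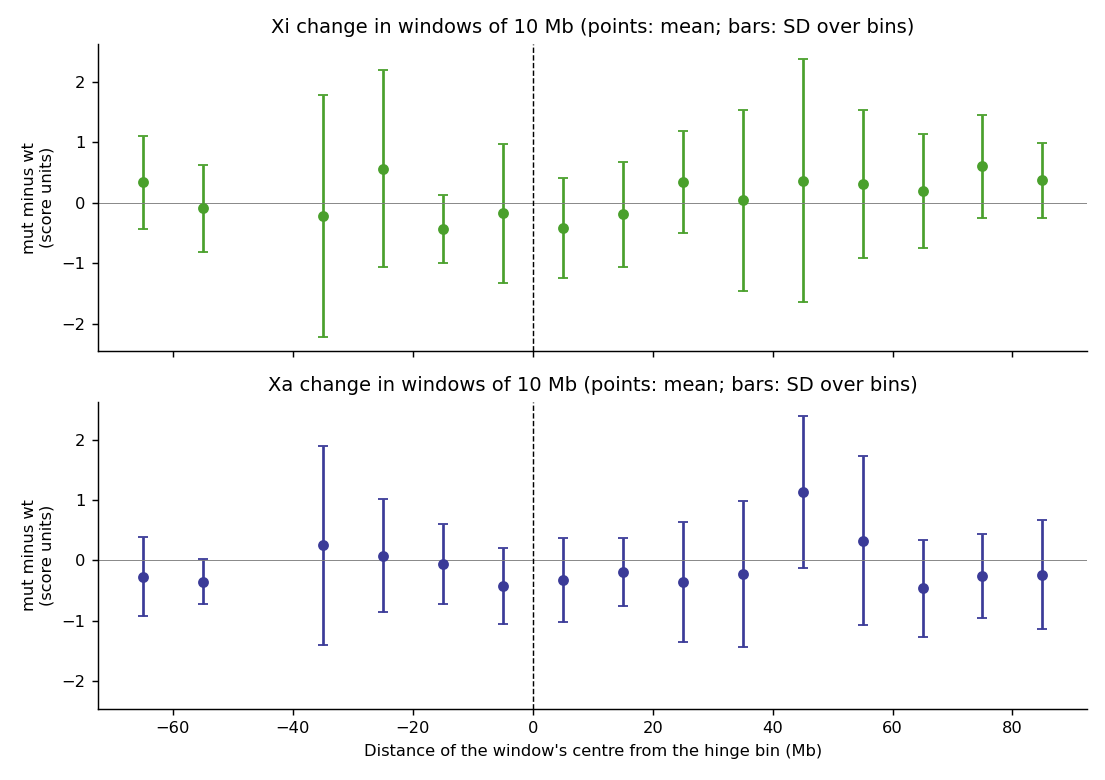
Mean mut minus wt score in 10 Mb windows with at least 10 kept bins, for Xi (upper) and Xa (lower), against the distance of the window's centre from the hinge bin (Mb), with bars for the SD over bins. On the Xi the 4 windows within 20 Mb of the hinge lie below 0, from −0.432 to −0.172, as they do on the Xa, from −0.425 to −0.0632, and on the distal side the Xi windows beyond 20 Mb lie above 0. The distal Xa windows beyond 20 Mb also lie below 0, from −0.463 to −0.223, except those at 40 to 60 Mb.

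At the hinge itself the wt Xi crossed from one megadomain to the other with little step. Over the 10 bins (5 Mb) on each side the wt Xi averaged −0.764 and −0.896, a step of −0.132, and 71.6% of 289 positions along the chromosome had a step at least as large. The wt Xa went across the same point from 0.564 to −0.813, a step of −1.38 that 6.85% of 292 positions reached. On the mut Xa the step was −1.04 (9.97% of 291 positions). The mut Xi showed a step of −1.0, from −0.331 to −1.33, reached by 12.9% of 287 positions. Over these 5 Mb the Xa thus scored higher on the proximal than on the distal side, and on the mut Xi a step in the same direction was present. Means of 10 bins cannot place the border at Dxz4 itself. The wt Xa fell over several bins, from 1.61 at −1.5 Mb through 1.06 and 0.463 to 0.257 in the hinge bin and −0.161 in the next bin.

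The Xi change over these 5 Mb was 0.433 on the proximal and −0.438 on the distal side, a step of −0.870 that 15.8% of 284 positions reached, and the Xa change stepped by 0.336 (45.6% of 272 positions). As a background, steps over 0.5 in size were found at 52.4% of positions on the wt Xa, 17.6% on the wt Xi, 51.5% on the mut Xa and 47.4% on the mut Xi. For the changes these shares were 44.7% on the Xi and 29.8% on the Xa. Neighbouring positions share most of their bins, so these shares do not count independent steps.

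**Figure D5:**
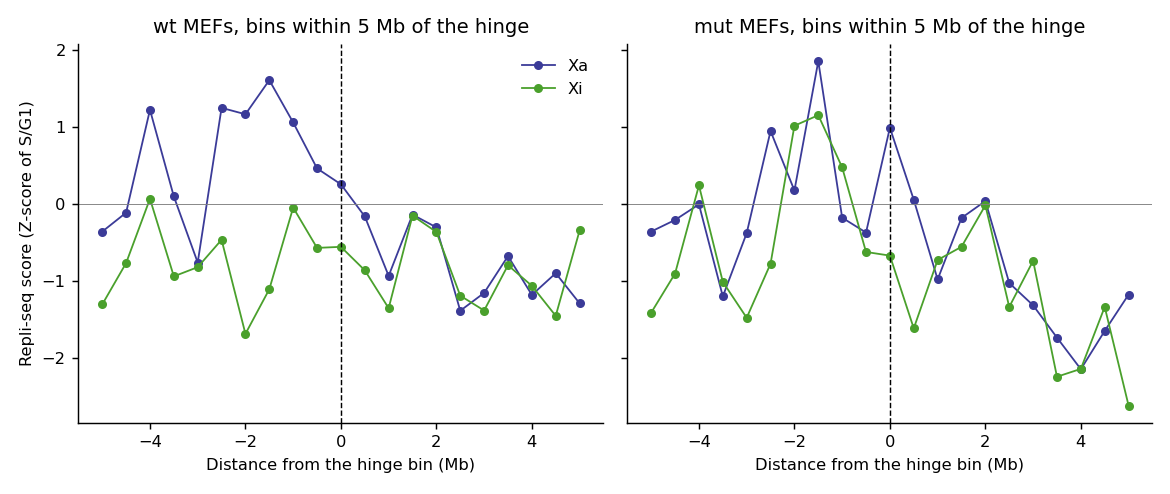
Repli-seq score (Z-score of S over G1) of the single bins within 5 Mb of the hinge bin (dashed line at 0 Mb) for Xa (blue) and Xi (green) in wt (left) and mut (right) cells. In mut cells the Xi bins at −2 and −1.5 Mb reach 1.02 and 1.16, from −1.69 and −1.11 in wt cells.

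The proximal side of the step came from a gene-dense stretch that ends shortly before Dxz4. The bin chrX:73500001-74000000 scored −1.69 on the wt Xi and 1.02 on the mut Xi, a change of 2.71. It holds 17 gene starts, among them Hcfc1 (a transcriptional co-regulator), L1cam (a neuronal adhesion molecule) and Slc6a8 (a creatine transporter). Its Xa score went the other way, from 1.17 in wt to 0.176 in mut. The next bin, chrX:74000001-74500000, scored −1.11 on the wt Xi and 1.16 on the mut Xi, a change of 2.26. It holds 21 gene starts, among them Flna (the actin crosslinker filamin A), G6pdx (glucose-6-phosphate dehydrogenase), Emd (the nuclear envelope protein emerin) and Irak1 (a kinase of Toll-like receptor signalling). Its Xa score was 1.61 in wt and 1.86 in mut. On the mut Xi both bins thus scored above 0, the first between its wt and mut Xa scores and the second below both, and the score without allele split was higher in mut there too, by 0.169 and 0.195.

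Closer to Dxz4 the Xi change was smaller. The bin chrX:74500001-75000000 (5 gene starts) went from −0.0459 to 0.476 on the Xi. The bin chrX:75000001-75500000, with Dkc1 (dyskerin, of telomerase and box H/ACA particles) and F8 (coagulation factor VIII), scored −0.570 in wt and −0.623 in mut. The hinge bin, with the starts of Vbp1 (a prefoldin subunit), Rab39b (a small GTPase) and Pls3 (the actin bundler plastin 3), scored −0.556 on the wt Xi and −0.671 on the mut Xi, against 0.257 on the wt Xa and 0.992 on the mut Xa. Both its Xi scores were below both its Xa scores, and the Xi change of −0.114 was far below the scatter between adjoining bins.

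On the distal side the bins next to the hinge differed among themselves. The first, chrX:76000001-76500000, scored −0.862 on the wt Xi and −1.62 on the mut Xi, and −0.161 and 0.0555 on the Xa. The bin chrX:77500001-78000000, with Tbl1x (a co-repressor subunit) and Prkx (a protein kinase), was at −0.364 on the wt Xi and −0.0163 on the mut Xi and at −0.303 and 0.0388 on the Xa, so all 4 values lay close together. Starting 3.5 Mb from the hinge, a run of 2 bins, chrX:79000001-80000000, went from a mean of −0.929 to −2.19 on the Xi, with an Xa change of −1.01.

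Runs of 2 or more adjoining bins that shifted the same way by over 1 were also listed. With 16.4% of all bins higher by over 1 and 12.5% lower, runs can form by scatter alone. How many would do so was not computed. There were 6 such runs of higher Xi scores (4 proximal, 2 distal) and 6 of lower Xi scores (3 proximal, 3 distal). The score without allele split, made from the reads of both alleles together, was higher in mut in 5 of the 6 upward runs and lower in all 6 downward runs. That score includes the Xi reads by which the runs were picked, so it is no independent check. Without regard to runs it was higher in mut in 55.2% of proximal and 44.7% of distal bins. The exception among the upward runs was chrX:46000001-47500000 (Actrt1), which holds no clear bin, with an Xi change of 3.57 and an unsplit change of −0.0657.

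The other upward runs lay over genes. In the proximal megadomain they were chrX:12000001-13000000, with Bcor (a Polycomb-associated co-repressor) and Med14 (a Mediator subunit), where the Xi went from −1.63 to 0.328, and chrX:20500001-21500000, with Uba1 (the ubiquitin-activating enzyme), Araf (a Raf kinase) and Timp1 (a metalloproteinase inhibitor), where it went from −1.15 to 0.212. These proximal runs held 4 and 18 gene starts, and the run next to Dxz4 held 38, each in 2 bins, against a proximal mean of 3.17 per bin. In the distal megadomain the upward runs were chrX:142000001-143000000, with Acsl4 (a long-chain acyl-CoA synthetase), from −1.05 to 1.27, and chrX:166000001-167500000, with Ofd1 (a centriole and cilium protein), Tmsb4x (an actin-binding thymosin) and the RNA sensors Tlr7 and Tlr8, from −1.06 to 0.869. The distal runs held 6 gene starts in 2 bins and 11 in 3 bins, against a distal mean of 2.45 per bin. These upward runs over genes were found at 2 to 90.5 Mb from the hinge, without a common distance.

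The downward runs held few genes. The longest, chrX:65500001-68500000 (6 bins, 5 gene starts, among them Slitrk2, a neuronal membrane protein), lay in the proximal megadomain and went from −0.570 to −1.86 on the Xi, with an Xa change of −0.204. Proximally, chrX:59500001-60500000, with Fgf13 and F9 (coagulation factor IX), went from −0.496 to −1.73, with an Xa change of −0.503. Distally, chrX:88000001-90000000 (4 bins), with Il1rapl1 (a synaptic receptor of the interleukin-1 receptor family), went from −0.895 to −2.05 while the Xa changed by 0.0202. The runs chrX:44000001-45000000 and chrX:113500001-114500000 are close to dropped bins, and in the latter the single Xa change known was −3.74.

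Among clear single bins, the largest upward Xi changes on each side were alike in size. Proximally it was the Hcfc1 bin described above (2.71). Distally it was chrX:101000001-101500000, 25.5 Mb from the hinge, with Med12 (a Mediator kinase module subunit), Nono (a paraspeckle protein), Foxo4 (a forkhead factor) and Il2rg (the common gamma chain of cytokine receptors), which went from −1.59 to 1.25, a change of 2.84. The Xa scored 1.04 in wt and 0.395 in mut there. Larger changes, up to 4.48 proximally (Actrt1) and 4.73 distally (Vmn2r121), were all in bins that were not clear.

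Without allele split the megadomains were nearly level. The deposited score of all reads averaged 0.000755 ± 0.125 (145 bins) and 0.0203 ± 0.124 (190 bins) in wt and 0.0198 ± 0.171 and 0.0133 ± 0.166 in mut, on a scale of its own that cannot be set against the allele scores. The mut over wt ratio of its SD was 1.36 in the proximal and 1.35 in the distal megadomain. Mut minus wt averaged 0.0191 proximally and −0.00703 distally, so the megadomain with the higher Xi change was not the one with the higher unsplit change. Over clear bins the unsplit change had an r with distance from the hinge of 0.42 (proximal) and 0.47 (distal), and an r with the Xi change of 0.63 and 0.43.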

How the data were processed

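Repli-seq reads of sorted G1 and S phase cells were processed by the authors, who aligned them with Bowtie2 to mm10 with strain SNP positions masked, assigned reads to FVB or castaneus with SNPsplit, pooled the replicates and deposited, per genotype, 1 score for all reads and 1 Z-score per allele in 500 kb bins of the X chromosome (6 tracks, 4 of them by allele). The software versions are not given in the sources used here. The bins over which the Z-scores were taken are not stated. Samples were assigned to wt or SmcHD1 mut from the genotype given in the labels. The descriptions in the labels call both alleles Xa, so the allele came from the track names and the methods.

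Allele scores repeated at least 20 times in a track or outside −3 to 3 were dropped, as were 7 bins of the unsplit scores with a constant value of 0. Mean, SD, median, Pearson's and Spearman's correlations over bins and steps between 10-bin windows with at least 5 kept bins each were computed with Python 3.11.15, numpy 2.4.6, pandas 2.3.3 and scipy 1.17.1, and the functions were tested on simulated data with known differences. No p-value was computed, since each genotype has 1 pooled track per allele. Genes were placed by their start in GENCODE M21 (948 protein-coding starts on the X). Genes are named where their bin lies within 2.5 Mb of the hinge, among the 5 largest or smallest Xi changes of a megadomain, in a run of shifted bins, or in the lists of escape and housekeeping genes. The members and lists were chosen with earlier results of these data known. The alternatives were other score limits, dropping constants repeated 3 or more times, medians, scaling each track by its own SD, bins kept in all 4 allele tracks, clear bins, leaving out bins after 150 Mb or beyond 50 Mb of the hinge, and gene-rich or gene-poor bins alone, and a value was taken as close to the reported one where it moved by under 0.1, or by under 1.5 times with the same sign.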

Additional observations from a re-analysis of the deposited data

How the results depend on the processing

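No paired analysis was possible because the deposited scores pool the replicates, and leaving out a replicate was not run for the same reason. Of 88 values recomputed under 11 alternatives for each of 8 results, 69 stayed within 0.1 or 1.5 times of the reported value, 18 moved further and 1 reversed, and the cause was not tested. The differences of the wt Xi score, the wt Xa score, the mut Xa score and the Xa change are small and took the other sign under 2, 4, 2 and 2 alternatives, so they have no settled direction. The mut Xi SD ratio, 1.03, ran from 0.908 to 1.14 and was under 1 under 3 of them.

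The distal minus proximal difference of the Xi change was positive under every alternative run. It was 0.331 with a limit of ±2, 0.316 with ±5, 0.308 for medians, 0.108 without bins after 150 Mb, 0.0655 within 50 Mb of the hinge and 0.0281 in gene-poor bins. The difference of the mut Xi score was 0.0993 without bins after 150 Mb, 0.0823 within 50 Mb, 0.31 in bins rich in genes and 0.00133 in the poor ones. That of the wt Xi score was 0.0505 over gene-rich bins, −0.227 over gene-poor bins and 0.0117 for medians. For the wt Xa score it was −0.0101 over clear bins, −0.0749 for medians, −0.018 without bins after 150 Mb and −0.0216 in gene-poor bins. For the mut Xa score it was −0.0306 with a limit of ±5 and −0.0872 within 50 Mb, and for the Xa change 0.0453 for medians and 0.0311 over clear bins. The distal over proximal SD ratio of the wt Xi was 0.486 with a limit of ±5 and turned to 1.1 as a ratio of median absolute deviations. The read number behind each bin is unknown, so no counting error can be given.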

Other observations

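Genes known to escape X inactivation gave a mixed picture on the 2 sides of the hinge. The list held 5 genes in 5 proximal bins and 9 genes in 7 distal bins. On the wt Xi the proximal escape bins had a median score of −0.990 (lowest −1.33, highest −0.163), no higher than the proximal megadomain as a whole, and none was above 0. The distal ones had a median of −0.353 (lowest −0.977, highest 0.926), and 3 of 7 were above 0, against a distal megadomain median of −0.978 with 6.74% of bins above 0. The distal bins above 0 were those of Xist and Jpx (0.443), of Ftx (0.454) and of Mid1 (0.926), where Xist, Jpx and Ftx are non-coding genes of the X inactivation centre. On the mut Xi the medians were −0.572 (5 bins) and 0.0948 (6 bins, since that of Kdm5c was dropped), against −1.05 and −0.818 over the proximal and distal megadomain. Gene-rich bins had mut Xi medians of −0.830 and −0.572, and the housekeeping bins described below −0.0698 (3 bins) and 0.0241 (6 bins). The Xi change of the escape bins had a median of −0.0782 proximally (2 of 5 above 0) and 0.133 distally (3 of 6). Over all bins 41.8% of proximal and 56.5% of distal changes were above 0.

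The bin of Firre, a non-coding locus that like Dxz4 carries CTCF-binding repeats, lies 25 Mb proximal to the hinge. It scored −0.163 on the wt Xi and −0.488 on the mut Xi, and −0.760 and 0.388 on the Xa. As in the hinge bin, the Xi was not higher in mut there, but unlike the hinge bin the Firre bin is not a clear bin. Its Xi change of −0.326 was below the bin-to-bin scatter given above. The unsplit change was 0.0729 in the Firre bin and −0.0366 in the hinge bin, so the 2 loci were not alike in that score.

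The genes listed as housekeeping examples lay in 3 proximal and 6 distal bins. Their median Xi change was 1.24 proximally (Hprt 0.225, Uba1 1.24, G6pdx 2.26) and 0.707 distally, where 5 of 6 bins were above 0, against 56.5% of all distal bins. The distal values ran from −0.319 in the bin of Rlim, a ubiquitin ligase that acts in X inactivation, to 1.28 in that of Pgk1, phosphoglycerate kinase. The bin of Rlim is also the bin of Ftx, counted among the escape bins above. Over all bins the median Xi change was 0.00422. These bins are few and gene-rich, and no test was made on them.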
